A study of Rattus norvegicus with 15 samples.

Results

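The 10 genes described here supply and load peptides for MHC class I, the surface molecule that shows fragments of a cell's own proteins to CD8 T cells. They were chosen by symbol (B2m, Tap1, Tap2, Tapbp, Nlrc5, Psmb8, Psmb9, Psmb10, Psme1 and Psme2) from the 20375 genes listed, and all 10 were among the 15424 genes tested. RNA-seq was run on whole retinas of wild type Sprague-Dawley rats at postnatal week 12, labelled as day 31 after transplantation, in 5 groups of 3 libraries each. Healthy (NT) rats received neither sodium iodate nor cells. Sham rats received sodium iodate (NaIO3), an oxidant that kills the retinal pigment epithelium and then photoreceptors, at 40 mg/kg, and before it vehicle alone into the vitreous. The MSC, MSCEPO and DPSC groups received the same dose of NaIO3 and an intravitreal cell injection. The MSC group received human mesenchymal stem cells from Wharton's jelly, and the MSCEPO group received the same kind of cells carrying a lentivirus for human erythropoietin and GFP and sorted. For the DPSC group the labels give only the abbreviation. Rats given the xenografts also received dexamethasone (2 mg/kg) before the surgery and cyclosporin (10 mg/kg per day) after it, and neither the labels nor the study's methods say whether Sham rats received these drugs. If they did not, the effects of cells and of the drugs cannot be told apart against Sham. The labels do not say whether each library came from its own animal, so the p-values measure only the spread between these libraries.

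Cells cut their proteins with the proteasome, a barrel whose cutting sites sit on beta subunits. Under interferon, most of all interferon gamma, the constitutive subunits Psmb6, Psmb7 and Psmb5 are replaced by Psmb9, Psmb10 and Psmb8, which forms the immunoproteasome, and the Psme1 and Psme2 proteins cap it as the PA28 activator. Peptides are then pumped into the endoplasmic reticulum by the Tap1 and Tap2 transporter, and tapasin (Tapbp) holds the transporter next to an empty class I molecule, a heavy chain bound to beta-2-microglobulin (B2m). Nlrc5 is the coactivator that switches on the class I genes. In the healthy retina, a site of immune privilege, neurons carry little class I, and most of it lies on microglia and vessels.

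The promoters of the members are shown first because interferon-responsive genes often carry a short element called ISRE. RefSeq (build GRCr8) held a promoter window, from 250 bases before to 50 bases after the gene's start, for 9 of the 10 members, all but Nlrc5. A match to ISRE, taken as GAAA repeated after any 2 bases and searched on both strands, was present in 7 of the 9 windows (B2m, Tap1, Tap2, Tapbp, Psmb8, Psmb10 and Psme2), and in 3.92% of all 33469 rat promoter windows of that length. Tapbp, with overlapping matches, and Psmb10 held 2 each. The 160 bases from position -150 to position 10 are given for 4 members that were higher in the MSC group than in the healthy group and for Tap2 and Tapbp, which were not, with the matches in capitals (the opposite-strand form in Tap1 and Psmb8).
B2m, chr3:129549180-129549339, + strand: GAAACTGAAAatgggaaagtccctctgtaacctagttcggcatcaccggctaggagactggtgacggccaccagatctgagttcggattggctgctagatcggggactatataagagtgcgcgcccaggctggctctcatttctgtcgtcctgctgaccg
Tap1, chr20:4668534-4668693, - strand: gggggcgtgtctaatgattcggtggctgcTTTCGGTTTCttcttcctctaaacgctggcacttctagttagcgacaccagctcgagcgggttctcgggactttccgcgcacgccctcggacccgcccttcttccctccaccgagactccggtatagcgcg
Psmb8, chr20:4657022-4657181, - strand: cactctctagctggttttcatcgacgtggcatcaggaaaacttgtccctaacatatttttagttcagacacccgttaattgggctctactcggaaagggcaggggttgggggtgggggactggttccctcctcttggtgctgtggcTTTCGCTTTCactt
Psmb10, chr19:50743283-50743442, - strand: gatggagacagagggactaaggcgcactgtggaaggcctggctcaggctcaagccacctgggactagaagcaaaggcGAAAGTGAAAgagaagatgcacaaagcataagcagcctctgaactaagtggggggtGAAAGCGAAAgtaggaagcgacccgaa
Tap2, chr20:4652287-4652446, - strand: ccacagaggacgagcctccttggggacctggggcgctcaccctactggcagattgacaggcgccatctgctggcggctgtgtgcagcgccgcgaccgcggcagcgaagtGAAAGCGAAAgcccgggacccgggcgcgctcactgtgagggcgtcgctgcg
Tapbp, chr20:4967868-4968027, - strand: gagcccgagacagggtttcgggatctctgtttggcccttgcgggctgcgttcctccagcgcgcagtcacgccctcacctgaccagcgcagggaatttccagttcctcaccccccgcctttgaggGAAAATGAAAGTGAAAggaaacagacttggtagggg

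The other searched letters were scarcer in the members. The kappaB element, taken as GGG and TTCC with any 3 bases between them, was found in the windows of B2m, Tap1 and Tapbp, 3 of 9, and in 5.37% of all windows. The GAS letters TTCNNNGAA were found in 1 of 9, Psmb8, against 8.87% of all windows, and CCAAT in 3 of 9 (B2m, Psmb8 and Psmb9) against 37.5%. None of these matches overlapped an ISRE match in a member's window. Tap1 and Psmb9 start 457 bases apart on opposite strands, so that their windows share 44 bases, and 5 of the members (Tap1, Tap2, Tapbp, Psmb8 and Psmb9) lie on chromosome 20. These matches describe letters in a window and do not show that a factor bound there.

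The values are rlog values, a log2 scale of DESeq2 on which the counts are normalized for depth and drawn towards the gene's mean when they are low or noisy. A difference of 1 is therefore close to 2-fold and is understated for genes with few reads. The scale is not corrected for gene length, so levels are compared between libraries and not between genes. The depth of each library is unknown, since the files give no counts, and the median over all tested genes ran from 8.63 to 8.82 across the 15 libraries. One library stood apart in these genes. MSC replicate 1 was the highest of the 15 libraries for 10 of the 10 members, and the members' differences that rest on the MSC group are given with and without it.

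**Figure D1:**
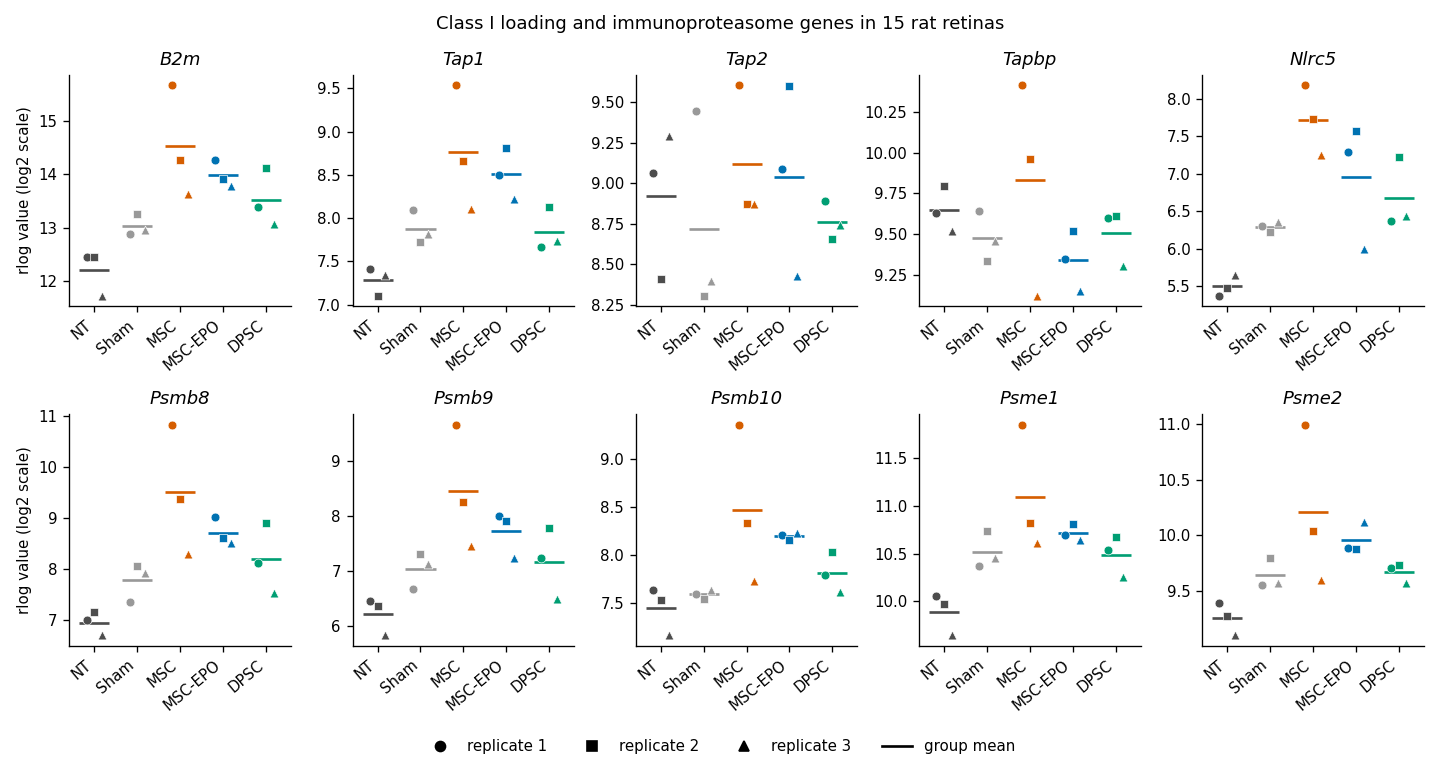
The rlog value (log2 scale) of each of the 10 members in each library, 1 panel per gene, with points for the 15 libraries and a bar for each group mean. MSC replicate 1 is the highest point in all 10 panels, and the groups of Tap2 overlap throughout.

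B2m, the invariant chain without which no class I molecule reaches the surface, was lowest in the healthy retina and highest in the MSC group. The rlog values of B2m were 12.44, 12.46 and 11.73 in the healthy libraries and 12.88, 13.26 and 12.95 in the Sham libraries. They were 15.66, 14.27 and 13.62 in the MSC libraries, 14.27, 13.91 and 13.78 in the MSCEPO libraries, and 13.38, 14.12 and 13.06 in the DPSC libraries. All 3 Sham libraries lay above all healthy libraries, and all MSC and MSCEPO libraries lay above all Sham libraries, whereas DPSC overlapped Sham. Against the healthy group, B2m was 4.94-fold higher in the MSC group (log2 difference 2.30 ± 0.42, SE, n = 3 and 3, adjusted p = 0.00396 by limma) and 3.42-fold higher in the MSCEPO group (1.77 ± 0.42, adjusted p = 0.0175). The MSC mean still lay 1.73 above the healthy mean without MSC replicate 1. In the Sham and DPSC groups the differences from the healthy group were 0.82 (adjusted p = 0.480, 95% interval -0.10 to 1.73) and 1.31 (adjusted p = 0.125, 0.39 to 2.22), and neither passed the test.

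Nlrc5, the class I coactivator, had the smallest adjusted p of the members in MSC against healthy and in the F-test over the 5 groups. Its rlog values were 5.38, 5.47 and 5.65 in the healthy libraries, 6.30, 6.22 and 6.36 in Sham, 8.18, 7.73 and 7.25 in MSC, 7.29, 7.57 and 5.99 in MSCEPO, and 6.37, 7.22 and 6.44 in DPSC. Healthy libraries were the lowest, and Nlrc5 was the one member for which all 3 DPSC libraries lay above all Sham libraries. MSCEPO replicate 3, at 5.99, lay below the Sham libraries and apart from the other two of its group. Nlrc5 was 4.67-fold higher in the MSC group than in the healthy group (2.22 ± 0.36, adjusted p = 0.00216) and 2.74-fold higher in the MSCEPO group (1.45 ± 0.36, adjusted p = 0.0207). The MSC difference was 1.99 without MSC replicate 1 (adjusted p = 0.00946). The Sham and DPSC differences of 0.80 (adjusted p = 0.390) and 1.18 (adjusted p = 0.104) did not pass.

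Of the transporter subunits, Tap1 was called in 2 groups and Tap2 in none. Tap1 read 7.41, 7.11 and 7.35 in the healthy libraries, 8.09, 7.73 and 7.82 in Sham, 9.54, 8.66 and 8.10 in MSC, 8.50, 8.81 and 8.22 in MSCEPO, and 7.66, 8.13 and 7.74 in DPSC. The Tap1 groups did not overlap between healthy and any other group, and the MSC and MSCEPO libraries were all above the Sham libraries. Tap1 rose against the healthy group 2.78-fold in MSC (1.48 ± 0.29, adjusted p = 0.00523) and 2.33-fold in MSCEPO (1.22 ± 0.29, adjusted p = 0.0166), with 1.09 in MSC without its replicate 1 (adjusted p = 0.0103). Its partner Tap2 read 9.06, 8.41 and 9.29 in the healthy libraries, 9.45, 8.31 and 8.40 in Sham, 9.60, 8.87 and 8.87 in MSC, 9.09, 9.60 and 8.43 in MSCEPO, and 8.89, 8.66 and 8.74 in DPSC. The Tap2 libraries of every pair of groups overlapped. Tap2 differed between MSC and healthy by 0.19 (adjusted p = 0.761, 95% interval -0.57 to 0.96) and by -0.05 without MSC replicate 1, and the spread within a group reached 1.17 in MSCEPO. The difference in response between Tap1 and Tap2 was not tested.

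Tapasin was the other member without a group pattern. Tapbp ran from 9.52 to 9.80 in the healthy libraries, from 9.34 to 9.64 in Sham, from 9.15 to 9.52 in MSCEPO and from 9.30 to 9.61 in DPSC. Its MSC libraries read 10.41, 9.96 and 9.12 and spanned the values of all other groups. The MSC difference from the healthy group was 0.18 (adjusted p = 0.666, 95% interval -0.35 to 0.72) and the MSCEPO difference was -0.31 (adjusted p = 0.446). The MSC mean of Tapbp without its replicate 1 lay -0.11 from the healthy mean. Over the alternative limma fits its adjusted p ran from 0.0439 to 0.847 in MSC against healthy. It ran from 0.0365 to 0.962 in MSC against Sham and from 0.0425 to 0.850 by the F-test.

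The differences of the 3 immunoproteasome subunits in MSC against healthy ran from 1.03 for Psmb10 to 2.55 for Psmb8. Psmb8, the chymotrypsin-like subunit also called LMP7, read 6.99, 7.15 and 6.70 in the healthy libraries, 7.34, 8.07 and 7.91 in Sham, 10.82, 9.38 and 8.30 in MSC, 9.01, 8.61 and 8.51 in MSCEPO, and 8.12, 8.90 and 7.54 in DPSC. Every NaIO3 library was above every healthy library, and every MSC and MSCEPO library was above every Sham library. Psmb8 rose 5.85-fold in MSC against healthy (2.55 ± 0.50, adjusted p = 0.00547), the largest difference among the members, and 3.39-fold in MSCEPO (1.76 ± 0.50, adjusted p = 0.0387). The MSC difference from the healthy mean was 1.89 without MSC replicate 1 (adjusted p = 0.0117). The MSC libraries of Psmb8 spanned 2.53 on the log2 scale, against 0.45 in the healthy libraries.

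Psmb9, or LMP2, read 6.45, 6.36 and 5.83 in the healthy libraries, 6.68, 7.30 and 7.13 in Sham, 9.66, 8.25 and 7.45 in MSC, 8.01, 7.92 and 7.24 in MSCEPO, and 7.23, 7.79 and 6.50 in DPSC. Its Sham libraries lay above the healthy ones, its MSC libraries above the Sham ones, and its MSCEPO and DPSC libraries overlapped Sham. The rise in MSC against healthy was 4.73-fold (2.24 ± 0.47, adjusted p = 0.00749) and 1.64 on the log2 scale without MSC replicate 1 (adjusted p = 0.0188), while the MSCEPO difference of 1.51 ± 0.47 missed the threshold (adjusted p = 0.057). Psmb10, or MECL-1, read 7.63, 7.53 and 7.16 in healthy, 7.59, 7.54 and 7.63 in Sham, 9.36, 8.33 and 7.73 in MSC, 8.21, 8.16 and 8.22 in MSCEPO, and 7.79, 8.03 and 7.61 in DPSC. Unlike Psmb8 and Psmb9, its Sham libraries did not lie above the healthy range. Psmb10 was 2.05-fold higher in MSC than in healthy (1.03 ± 0.30, adjusted p = 0.0315), a call that ended when any of these 6 libraries other than MSC replicate 3 was left out, at adjusted p from 0.0582 to 0.119 and at a difference of 0.59 without MSC replicate 1. The MSCEPO libraries of Psmb10 spanned 0.07 and all lay above Sham and healthy, at a difference of 0.76 from healthy that did not pass (adjusted p = 0.122).

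The genes of the PA28 caps were lowest in the healthy retina. Psme1 read 10.05, 9.97 and 9.65 in healthy, 10.37, 10.73 and 10.45 in Sham, 11.85, 10.82 and 10.61 in MSC, 10.69, 10.81 and 10.64 in MSCEPO, and 10.53, 10.68 and 10.25 in DPSC. All 12 libraries with NaIO3 were above the healthy ones, but apart from MSC replicate 1 the Sham and cell-treated libraries overlapped, between 10.25 and 10.82. Psme1 was 2.31-fold higher in MSC than in healthy (1.20 ± 0.25, adjusted p = 0.00719), and without MSC replicate 1 the difference of 0.83 passed the p threshold (adjusted p = 0.00895) but not the 2-fold one. Psme2 read 9.39, 9.27 and 9.10 in healthy, 9.55, 9.79 and 9.57 in Sham, 10.99, 10.03 and 9.60 in MSC, 9.88, 9.88 and 10.12 in MSCEPO, and 9.70, 9.73 and 9.57 in DPSC. The healthy libraries of Psme2 lay below all others, and its MSC difference of 0.96 ± 0.25 passed the p threshold (adjusted p = 0.022) and not the 2-fold one, as did the 0.56 without MSC replicate 1 (adjusted p = 0.0275).

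Counted over the members, the calls fell in 2 of the comparisons with the healthy retina. A gene was called when its adjusted p by limma was under 0.05 and its difference was over 2-fold. In MSC against healthy, 7 of 10 members were called higher (B2m, Tap1, Nlrc5, Psmb8, Psmb9, Psmb10 and Psme1), where 5.71% of all genes tested were. Without MSC replicate 1 the 5 members called were those of this list other than Psmb10 and Psme1, against 3.35% of all genes. In MSCEPO against healthy, 4 of 10 were called higher (B2m, Tap1, Nlrc5 and Psmb8), where 2.33% of all genes were. That count depended on single libraries. It was 2 without healthy replicate 1 and 1 without healthy replicate 2 (1.59% of all genes in each), none without healthy replicate 3 (1.1%), 1 without MSCEPO replicate 1 (1.47%) or 2 (1.33%), and 5 without MSCEPO replicate 3 (4.23%). The share of all genes thus moved with the members' count. Lower calls against healthy numbered 0 of 10 members in each group, where 0.0259% of all genes were called lower in Sham, 0.985% in MSC, 1.24% in MSCEPO and 0.259% in DPSC.

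**Figure D2:**
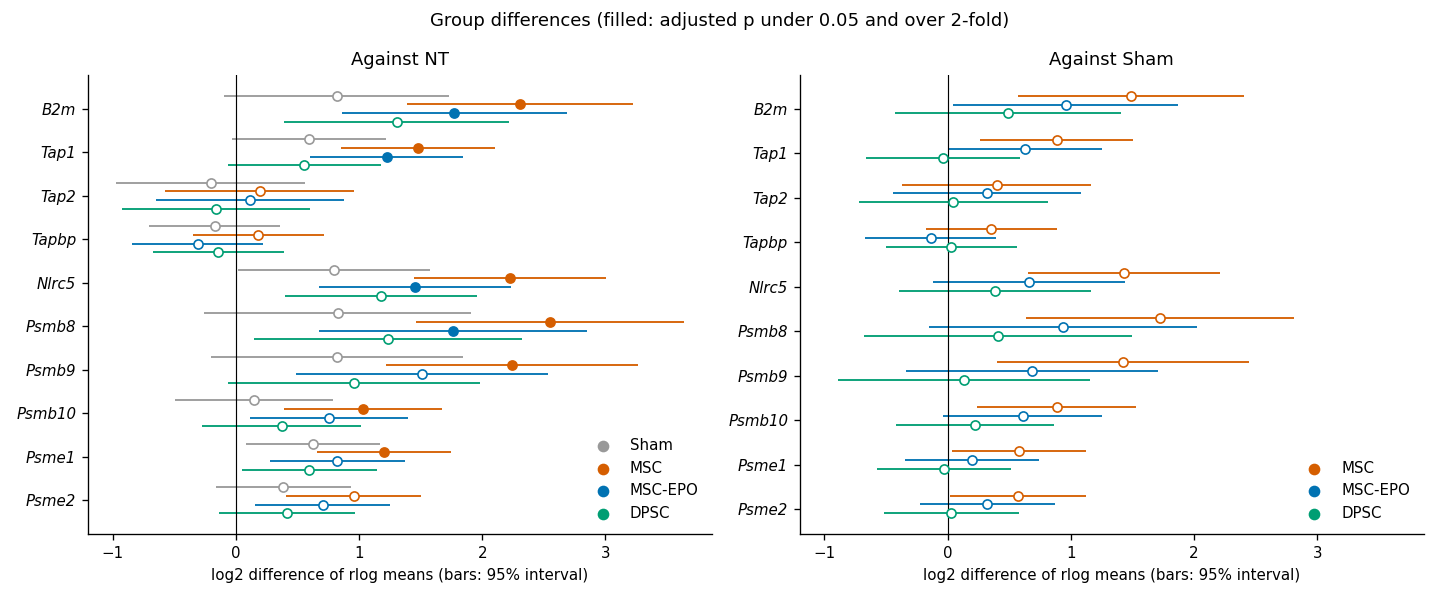
The log2 difference of each member (x axis, rlog scale) with 95% intervals from the limma fit. The left panel shows the Sham, MSC, MSCEPO and DPSC groups against the healthy group (NT). The right panel shows the MSC, MSCEPO and DPSC groups against Sham. Filled points are called genes. Differences from healthy reach 2.55 for Psmb8 in MSC, and the intervals of Tap2 and Tapbp against healthy include 0 in all 4 groups.

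Sham against healthy asks about NaIO3 together with the vehicle injection into the vitreous, and with the immunosuppressants if Sham rats received them. The design does not separate these. By limma 0 of 10 members were called, where 0.266% of all genes were called higher, and at an unadjusted p under 0.05 only Nlrc5 and Psme1 were higher (2 of 10, against 6.29% of all genes). The libraries themselves separated more often. For 7 of 10 members (B2m, Tap1, Nlrc5, Psmb8, Psmb9, Psme1 and Psme2) all Sham libraries lay above all healthy libraries, which was so for 16.6% of all genes tested. The differences of these 7 ran from 0.38 for Psme2 to 0.83 for Psmb8. For Psmb10, Tap2 and Tapbp they were 0.15, -0.20 and -0.17. In DPSC against healthy, limma again called 0 of 10 (0.525% of all genes higher), with 4 of 10 at an unadjusted p under 0.05 (8.91% of all genes), and 7 of 10 members (B2m, Tap1, Nlrc5, Psmb8, Psmb9, Psme1 and Psme2) did not overlap (16% of all genes). These comparisons share the healthy libraries, as do those of MSC and MSCEPO.

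The comparisons with Sham set the cell-treated retinas against retinas given NaIO3 and vehicle. The drugs are not separated from the cells there if Sham rats received none. In MSC against Sham 0 of 10 members were called by limma, and so were 0% of all genes. The paper, with DESeq2 and the same nominal thresholds, reports many genes over- and underexpressed against Sham in both the MSC and MSCEPO groups. The counts given here hold for limma on rlog values. At an unadjusted p under 0.05, 8 of 10 members were higher, all but Tap2 and Tapbp, against 9.49% of all genes. The largest differences were 1.72 for Psmb8 (95% interval 0.64 to 2.81, adjusted p = 0.155), 1.49 for B2m (0.57 to 2.40, adjusted p = 0.148), 1.43 for Nlrc5 (0.65 to 2.21, adjusted p = 0.134) and 1.42 for Psmb9 (0.40 to 2.44, adjusted p = 0.195). All MSC libraries lay above all Sham libraries for 6 of 10 members (B2m, Tap1, Nlrc5, Psmb8, Psmb9 and Psmb10), where 13.1% of all genes did so. Without MSC replicate 1 the differences were 1.06 for Psmb8, 0.92 for B2m, 1.20 for Nlrc5 and 0.82 for Psmb9, 0 members were called (0% of all genes) and 5 of 10 had an unadjusted p under 0.05 (5.85% of all genes). Without MSC replicate 3, the lowest MSC library for most members, 6 members were called, where 3.38% of all genes were called higher. In MSCEPO against Sham, 0 of 10 were called (0% of all genes higher), 2 of 10 (B2m and Tap1) had an unadjusted p under 0.05 against 3.19% of all genes, and 5 of 10 did not overlap (B2m, Tap1, Psmb8, Psmb10 and Psme2) against 7.44%.

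The DPSC group was close to Sham for most members, although the intervals were wide. In DPSC against Sham 0 of 10 members were called (0% of all genes higher) and 0 of 10 had an unadjusted p under 0.05 (0.985% of all genes). The differences ran from -0.04 for Tap1 (95% interval -0.66 to 0.59) to 0.49 for B2m (-0.43 to 1.40). Only Nlrc5 did not overlap, 1 of 10 against 4.75% of all genes, at a difference of 0.38 (-0.39 to 1.16). Over the 9 cell-treated libraries together, 0 of 10 members were called against Sham (0% of all genes higher), and 4 of 10 (B2m, Nlrc5, Psmb8 and Psmb10) had an unadjusted p under 0.05, against 5.8% of all genes. The largest of these differences was 1.02 for Psmb8 (0.14 to 1.91).

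No member was called between the cell types. MSC and MSCEPO differed by 0.08 for Tap2 to 0.79 for Psmb8 (95% interval -0.30 to 1.87), with 0 of 10 members called, 0% of all genes called higher, and 0 of 10 at an unadjusted p under 0.05 against 2.83% of all genes. These differences ran from -0.17 for Psmb10 to 0.54 for Nlrc5 without MSC replicate 1, and that of Psmb8 was 0.12. DPSC lay under MSC in the mean of every member. By limma 0 of 10 were called (0% of all genes lower), and 7 of 10 had an unadjusted p under 0.05 against 5.78% of all genes, with the largest difference, -1.31, for Psmb8 (-2.40 to -0.23, adjusted p = 0.600). Without MSC replicate 1 the difference was -0.65 for Psmb8 and the others ran from -0.81 for Nlrc5 to -0.04 for Tapbp, and 1 of 10 (Tap1) had an unadjusted p under 0.05 (2.35% of all genes). In DPSC against MSCEPO 0 of 10 were called (0% of all genes lower), 1 of 10 (Tap1, -0.67) had an unadjusted p under 0.05 against 0.901% of all genes, and Tap1, Psmb10 and Psme2 did not overlap (3 of 10, against 1.95%). These comparisons miss the threshold and do not show that the cell types acted alike.

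Asked without choosing a pair, limma's F-test over the 5 groups called 4 of 10 members, where 6.22% of all genes were called. These were Nlrc5 (adjusted p = 0.0202), B2m (0.0300), Tap1 (0.0347) and Psmb8 (0.0464), and the next were Psmb9 (0.0665) and Psme1 (0.0713). That count depended on single libraries, as did the share of all genes. It was 0 when any 1 healthy library (1.48% to 1.76% of all genes) or MSC replicate 2 (3.18%) was left out, 1 without Sham replicate 1 or 3 or MSCEPO replicate 2 (3.99% to 4.32%), 2 without Sham replicate 2, MSCEPO replicate 1 or DPSC replicate 1 (4.61% to 5.6%), 6 without MSC replicate 1 (6.29%) and 9 without MSC replicate 3 (8.79%).

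Most members varied together across the libraries. MSC replicate 2 and MSCEPO replicates 1 and 2 were each among the top 5 libraries for 9 of 10 members, and healthy replicate 3 was the lowest of the 15 for 6. Over the 15 libraries, which share the group structure and the normalization, the correlation of a member with the mean of the other 9 was 0.98 for Psmb9, 0.97 for Psmb8, 0.96 for B2m and 0.95 for Tap1. It was 0.35 for Tap2 and 0.49 for Tapbp, and without MSC replicate 1 it was 0.05 and -0.04. With the group means removed it was 0.92 for B2m and 0.87 for Tapbp, against 0.31 for Tap2, so that Tapbp varied with the other members inside the groups and Tap2 much less. Tapbp spanned 1.29 in the MSC libraries and at most 0.37 in any other group. These values with the group means removed were not computed without MSC replicate 1.

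Within a library, each inducible subunit was set against the constitutive subunit whose place it takes. The difference Psmb8 minus Psmb5 averaged -3.34 ± 0.04 (SD, n = 3) in healthy, -2.49 ± 0.37 in Sham, -0.58 ± 1.15 in MSC, -1.52 ± 0.57 in MSCEPO and -1.94 ± 0.93 in DPSC. Since lengths are not corrected, its sign carries no meaning and its change between groups is what is read. Sham lay 0.85 above healthy with no overlap (two-sided exact permutation p = 0.1, the smallest that 3 against 3 allows). The 9 cell-treated libraries lay 1.15 above Sham (exact permutation p = 0.0455, adjusted over 6 tests 0.109), and 8 of the 9 were above every Sham library. The mark of p under 0.05 was lost in 9 of the 12 cases with 1 library left out.

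Psmb9 minus Psmb6 followed the same order, at -1.001 ± 0.28 in healthy, -0.06 ± 0.47 in Sham, 1.64 ± 0.91 in MSC, 1.01 ± 0.48 in MSCEPO and 0.27 ± 0.75 in DPSC. Cell-treated retinas lay 1.04 above Sham (exact permutation p = 0.0546, adjusted 0.109), with 8 of 9 libraries above every Sham library. Psmb10 minus Psmb7 differed by only 0.03 between Sham (-4.02 ± 0.36) and healthy (-4.05 ± 0.18, exact permutation p = 1.0), and lay 0.66 higher in the cell-treated libraries than in Sham (exact permutation p = 0.0546, adjusted 0.109), with 7 of 9 above. The constitutive partners Psmb5, Psmb6 and Psmb7 themselves were called in none of the comparisons, and Psmb5 stayed between 9.88 and 10.64 over all 15 libraries. Part of each pair's difference between cell-treated libraries and Sham nevertheless came from a lower partner. Psmb9 alone differed by 0.75 against 1.04 for its pair with Psmb6. The values were 1.02 against 1.15 for Psmb8 and 0.57 against 0.66 for Psmb10.

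**Figure D3:**
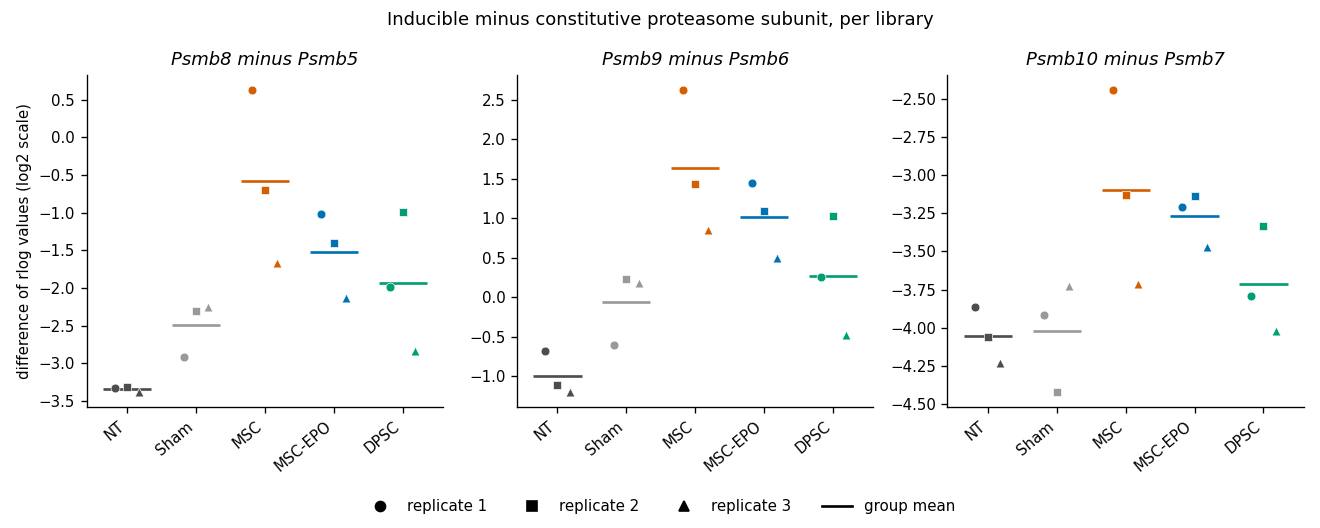
The difference in rlog value (log2 scale) between each inducible proteasome subunit and its constitutive partner in each library, by group, with points for libraries and bars for group means. Psmb8 minus Psmb5 and Psmb9 minus Psmb6 step up from healthy to Sham and again to MSC, while Psmb10 minus Psmb7 averages -4.05 in healthy and -4.02 in Sham.

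The rest of the proteasome did not share the members' differences. Of 14 constitutive core subunits (Psma1 to Psma7 and Psmb1 to Psmb7), 0 were called in any comparison or by the F-test. Their median difference from healthy was 0.03 in MSC and -0.07 in MSCEPO, next to medians near 0 over all genes. Of 7 other activators and assembly factors (Psme3, Psme4, Pomp and Psmg1 to Psmg4), 0 were called, with a median of -0.19 in MSC against healthy. Of all genes, 5.71% were called higher in MSC against healthy and 6.22% by the F-test. At these shares, 0 calls in lists this short say little.

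The class I heavy chains, the RT1 genes whose products B2m holds, were higher in the same groups. Of 24 listed, 16 were tested. Against healthy, 13 of 16 were called higher in MSC (5.71% of all genes) and 8 of 16 in MSCEPO (2.33%). In Sham and DPSC 0 of 16 were called (0.266% and 0.525% of all genes higher). The medians were 1.67, 1.34, 0.50 and 0.83, and all 16 were above 0 in each of these comparisons. Without MSC replicate 1 the MSC count was 7 (3.35% of all genes), and without healthy replicate 3 it was 8 (3.51%). The MSCEPO count ran from 3 without healthy replicate 3 (1.1%) to 7 without MSCEPO replicate 3 (4.23%). It was 5 without healthy replicate 1 or 2 (1.59% in each) or MSCEPO replicate 1 (1.47%), and 4 without MSCEPO replicate 2 (1.33%). RT1-CE5 is an example, at 9.02, 8.98 and 8.75 in healthy, 9.69, 10.23 and 9.92 in Sham, 11.92, 10.64 and 10.53 in MSC, 10.71, 10.81 and 11.11 in MSCEPO, and 9.67, 10.35 and 10.01 in DPSC. All MSC and MSCEPO libraries of RT1-CE5 lay above the Sham and DPSC libraries, and its F-test passed (adjusted p = 0.00666). RT1-CE4, RT1-CE10 and RT1-CE7 rose in MSC by 2.11, 2.67 and 2.05 and in MSCEPO by 1.56, 2.04 and 1.55 against healthy. The RT1 genes are near-identical copies and the rat genome's heavy chains differ between strains, so the share of reads given to each single gene is uncertain.

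Among 12 folding and trimming genes, Tapbpl, which encodes the tapasin-related editor TAPBPR, was the one called. Of all genes, 5.71% were called higher in MSC against healthy and 2.33% in MSCEPO. At these shares, 1 call in a list this short says little about the list. Tapbpl rose in MSC (1.30, adjusted p = 0.00717) and in MSCEPO (1.05, adjusted p = 0.0266) against healthy, the latter call being lost when any of the healthy libraries or MSCEPO replicate 1 or 2 was left out. The thiol oxidoreductase of the loading complex, Pdia3, differed by 0.54 in MSC (adjusted p = 0.0591) and the trimming peptidase Erap1 by 0.79 (adjusted p = 0.161). The median over the 12 genes was 0.32 in MSC and 0.03 in MSCEPO.

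Of 21 regulators, 20 were tested. Ifng, the gene of interferon gamma, stood at its lowest value in every healthy, Sham, MSCEPO and DPSC library, and did not reach the filter on low values. Against healthy, 3 of 20 were called higher in MSC (5.71% of all genes) and 2 of 20 in MSCEPO (2.33%). None was called lower in either (0.985% and 1.24% of all genes). Irf9, the DNA-binding part of the complex that reads the ISRE, rose by 1.39 in MSC (adjusted p = 0.000437) and by 1.22 in MSCEPO (adjusted p = 0.000604). Irf8, a factor of myeloid cells and B cells, rose by 3.01 and 2.08 (adjusted p = 0.00251 and 0.0181). Irf1, which acts on class I genes directly, rose by 1.25 in MSC (adjusted p = 0.0113), a call that ended without MSC replicate 1, and its MSCEPO difference was 0.79 (adjusted p = 0.0951). The MSCEPO count of regulators was 1 without healthy replicate 2 (1.59% of all genes) or 3 (1.1%), or without MSCEPO replicate 1 (1.47%) or 2 (1.33%).

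Nfyb, a subunit of the factor that binds CCAAT boxes in class I and class II promoters, went the other way. Its values were 11.09, 11.10 and 11.21 in healthy, 10.55, 10.68 and 10.65 in Sham, 10.40, 10.27 and 10.18 in MSC, 10.23, 10.00 and 10.36 in MSCEPO, and 10.62, 10.39 and 10.55 in DPSC. The healthy libraries of Nfyb lay above all others, and the differences of -0.50 in Sham (adjusted p = 0.0444), -0.85 in MSC (adjusted p = 0.000536), -0.94 in MSCEPO (adjusted p = 0.00021) and -0.61 in DPSC (adjusted p = 0.00916) passed the p threshold but not the 2-fold one. Ciita, the class II relative of Nlrc5, differed by -0.04 in MSC (adjusted p = 0.967) and by -0.89 in MSCEPO (adjusted p = 0.187).

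**Figure D4:**
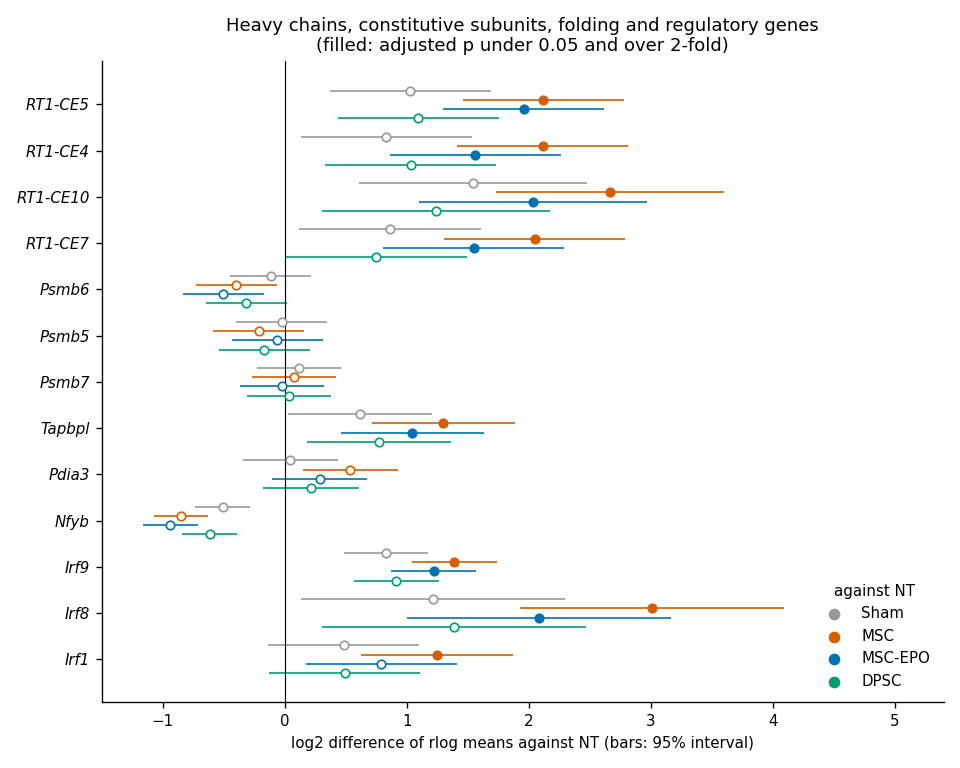
The log2 difference from the healthy group (x axis, rlog scale) of 13 named genes of the class I pathway (y axis), with points for the Sham, MSC, MSCEPO and DPSC groups, bars for 95% intervals from limma and filled points for called genes. The 4 heavy chains (RT1) lie to the right of 0 in all 4 groups, at 2.05 to 2.67 in MSC, and Psmb5, Psmb6 and Psmb7 lie between -0.50 and 0.12.

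Markers of immune cells rose in the same retinas. In bulk tissue, more cells of a type and more RNA per cell cannot be told apart. Ptprc, the pan-leukocyte marker CD45, read 6.37 to 6.88 in healthy, 7.47 to 7.77 in Sham, 12.15, 10.49 and 9.59 in MSC, 10.31, 9.44 and 7.94 in MSCEPO, and 7.97, 9.80 and 7.42 in DPSC. The order of the cell-treated libraries by Ptprc resembled that by the members, with MSC replicate 1 highest and MSCEPO replicate 3, DPSC replicate 1 and DPSC replicate 3 lowest. Ptprc was higher in MSC than in healthy by 4.06 (adjusted p = 0.00314) and in MSCEPO by 2.55 (adjusted p = 0.0361), with 0.95 in Sham (adjusted p = 0.693) and 1.71 in DPSC (adjusted p = 0.240) not passing. The MSCEPO call of Ptprc was lost when any healthy library or MSCEPO replicate 1 or 2 was left out.

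By list, 9 of 11 macrophage and microglia markers were called higher in MSC against healthy (5.71% of all genes) and 9 of 11 in MSCEPO (2.33%). Of these markers 2 of 11 were called in DPSC (0.525% of all genes) and 0 of 11 in Sham (0.266%). Their mean level relative to healthy ran from 0.77 to 1.48 in the Sham libraries, 1.58 to 3.04 in MSC, 1.43 to 2.14 in MSCEPO and 0.79 to 1.87 in DPSC. Aif1, a marker of microglia, rose by 2.62 in MSC (adjusted p = 0.00241) and by 2.26 in MSCEPO (adjusted p = 0.00585). Of the 12 T and NK cell markers, Cd8b and Gzmb stayed under the filter on low values, and of the other 10, 7 were called in MSC and 0 in the other groups, among them Cd3e of the T cell receptor complex (3.06, adjusted p = 0.0152) and the co-receptor Cd8a (1.39, adjusted p = 0.0119). The mean level of the 10 ran from 0.07 to 0.14 in Sham, 0.79 to 2.94 in MSC, 0.38 to 1.14 in MSCEPO and 0.07 to 0.94 in DPSC. All 4 B cell markers were called in MSC and 0 in the other groups, with mean levels of -0.10 to -0.05 in Sham and 1.66 to 4.77 in MSC. The shares of all genes given above hold for the T and NK cell and B cell lists too. Without MSC replicate 1 the MSC counts were 8 of 11, 3 of 10 and 2 of 4 (3.35% of all genes). The T and NK cell count in MSC was 3 without healthy replicate 2 (4.1%) and 4 without healthy replicate 3 (3.51%). The macrophage and microglia count in MSCEPO was 4 without healthy replicate 3 (1.1%) and 5 without MSCEPO replicate 1 (1.47%).

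In the Sham retinas the mean differences of the T and NK cell and B cell markers stayed within 0.14 of healthy on the log2 scale, while the summed T and NK cell level, which the most abundant markers weigh on, was 9.14 to 9.70 against 8.81 to 9.04 in healthy. Their macrophage and microglia markers (median difference 1.16) and the gliosis marker Gfap (3.38, adjusted p = 0.000403) moved beside the members. Ptprc lay 0.79 to 1.08 and the endothelial markers 0.40 to 0.57 above healthy in the Sham libraries, where the members lay 0.44 to 0.50 above. The mean level of the 4 rod genes used here lay below healthy in every NaIO3 library, from -0.87 to -0.555 in Sham, -1.52 to -1.42 in MSC, -1.84 to -1.41 in MSCEPO and -1.64 to -0.80 in DPSC. The 4 Müller glia markers ran from -0.69 to 0.81 in MSC against healthy, with a median of 0.23, and none was over 2-fold. The lowest was Rlbp1, their retinal-binding protein (adjusted p = 0.0288), which differed by -0.24 in Sham (adjusted p = 0.721), -0.30 in MSCEPO (adjusted p = 0.336) and -0.35 in DPSC (adjusted p = 0.395). The endothelial markers ran from -0.07 to 0.58 across the NaIO3 libraries. The part of cell makeup in the members' differences was not tested.

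**Figure D5:**
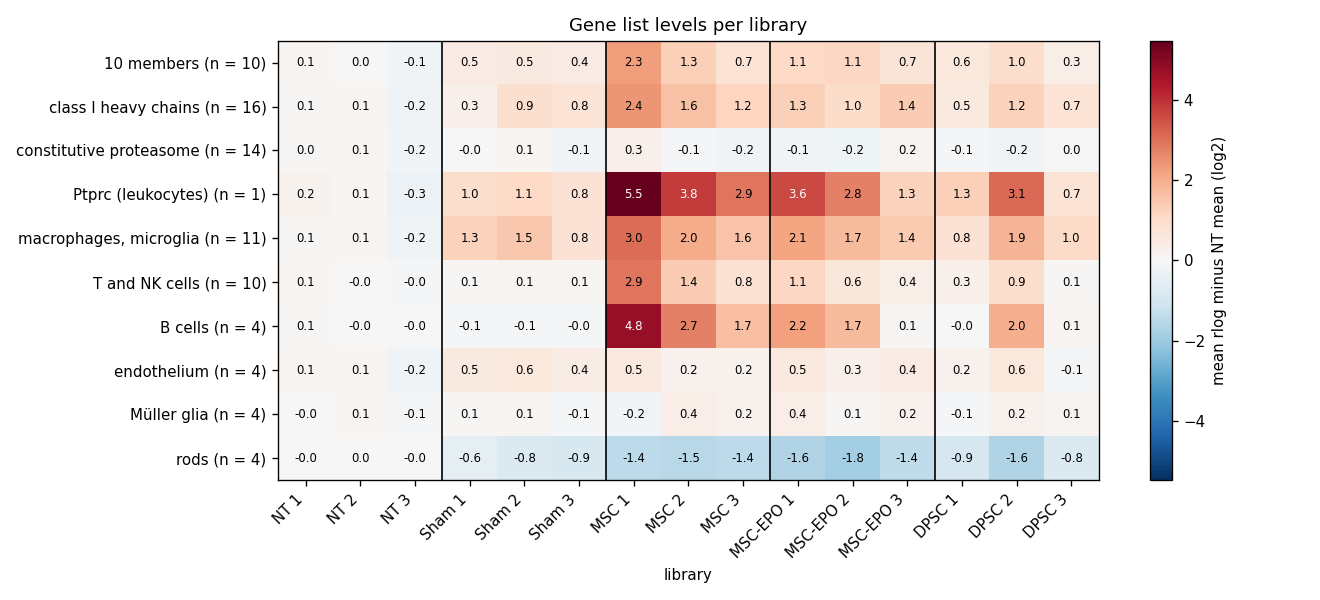
The mean rlog level of the members, of the heavy chains, of the constitutive proteasome and of cell type marker lists in each of the 15 libraries, relative to the healthy mean (colour and printed value, log2 scale). The members, the heavy chains, the macrophage and microglia markers, Ptprc and the endothelial markers are above healthy in all Sham libraries, and the T and NK cell row by at most 0.14. All rows but those of endothelium, Müller glia and rods are highest in MSC replicate 1.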

How the data were processed

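RNA was extracted from isolated retinas and mRNA libraries were prepared with a stranded QIAseq kit for paired-end sequencing. The authors quantified reads with Salmon (version 1.1.0 in the submitters' processing notes) against the Ensembl Rnor_6.0 transcriptome and deposited 1 table per library of rlog values from DESeq2 (listed there as version 3.2), which are log2 values after normalization for depth. Nothing was recounted. A table of the whole series with 15 per-sample columns was not used, and 0 of its values differed from the tables used. Genes whose mean over the libraries reached 3.32 (log2 of 10) were tested. One fit of all 15 libraries with limma 3.58.1 in R 4.3.3 (group means, trend on the mean, 10 residual degrees of freedom) gave differences, standard errors and Benjamini-Hochberg adjusted p over all genes tested, and a gene was called at an adjusted p under 0.05 and over 2-fold, the thresholds of the study's methods. limma stood in for a count test because no counts were used here. Subunit differences were tested with two-sided exact permutation tests in scipy 1.17.1.

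In data simulated for MSC against healthy, with 200 of 15424 genes changed, the fit called 43 of 50 genes at a log2 effect of 1.5, 48 of 50 at 2, and 50 of 50 at 2.5 and at 3. The simulated noise was independent between genes and equally wide in every group. It held no library like MSC replicate 1, so these shares can overstate the recovery in the real data. The members, the gene lists and the rule for named genes were chosen with earlier results of these data known. By that rule all members were named, up to 4 genes of each pathway list with the smallest adjusted p in the F-test, the constitutive partners, Irf1, cell type markers (Pecam1 was not analysed here) and the 10 genes most like the members; 2 genes of that rule are not reported here, in the lists' counts and levels included. Erap1 and Ciita were added after their values were seen. Same-numbered libraries of MSC and MSCEPO deviated from their group means together (correlations of 0.16 to 0.28 over genes, all 3 over 0.1). Neither the labels nor the study's methods name a pairing. The differences and intervals of that comparison therefore come from the fit without a block, and the block was run as an alternative. In the other 9 of 10 pairs of groups at least 1 correlation was not over 0.1. Alternatives covered the call rule, the filter, the scaling, the replicate block, array weights, the libraries in the fit and leaving out each library. Promoters came from RefSeq (GRCr8), a different build from that of the files, and no gene coordinates were joined between them.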

Additional observations from a re-analysis of the deposited data

Results flagged for a closer look

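MSC replicate 1 lay apart from the other 8 cell-treated libraries for 4 members, by a gap to the next library that was large against the range of the 9 (Dixon's criterion at the 95% level). B2m read 15.66 there, Psmb10 9.36, Psme1 11.85 and Psme2 10.99. Chance flags about 1 in 20 groups, the members vary together, and all 4 flags come from 1 library. Ptprc and the macrophage and microglia, T and NK cell and B cell markers were also highest in that library. The heavy chains and the folding and trimming genes were highest there as well. The part of the cell markers in the members' values was not tested. Without MSC replicate 1, the MSC means lay above the healthy means by 1.73 for B2m, 0.59 for Psmb10, 0.83 for Psme1 and 0.56 for Psme2.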

How the results depend on the processing

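Of the alternatives, the filters, the scalings, the fit without DPSC and the fit of the compared groups alone kept every count of called members within 1.5 times that reported, and the call rule on adjusted p alone gave 8 members in MSC against healthy (11% of all genes higher) and 4 in MSCEPO against healthy (5.83%). Psmb10 in MSC against healthy was not called after centring each library on its median (0.97), after quantile normalization (0.86) or in the fit of those groups alone, where its adjusted p was 0.122. The planned default array weights did not converge and were not run. Weights by gene-by-gene updates, chosen after seeing the data, gave MSC replicate 1 a weight of 0.21 and MSCEPO replicate 3 one of 0.08, and the cause of what they changed was not tested. Under them 4 members were called in MSC against Sham (2.96% of all genes higher), 2 in MSCEPO against Sham (1.43%), 1 in cell-treated against Sham (1.32%), 3 in DPSC against healthy (1.74%), 3 in DPSC against MSC (2.42% lower) and 8 by the F-test (44.3%). Differences that turned sign under them were all small or of Tap2. For Tap2 they became 0.024 in Sham against healthy, -0.042 in MSC against Sham, -0.11 in DPSC against Sham, -0.0187 in MSC against healthy and -0.51 in MSC against MSCEPO. They became 0.057 for Psme1 in DPSC against Sham, -0.039 for Psmb7 in MSC against healthy and -0.085 for Tap1 in MSC against MSCEPO.

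With each library left out in turn, members called ran from 0 to 6 in MSC against Sham, from 0 to 5 in MSCEPO against healthy, from 5 to 8 in MSC against healthy and from 0 to 9 by the F-test. In cell-treated against Sham, Psmb8 minus Psmb5 ran from 0.90 to 1.33, Psmb9 minus Psmb6 from 0.77 to 1.22 and Psmb10 minus Psmb7 from 0.46 to 0.81, and in Sham against healthy the last ran from -0.12 to 0.23. Other differences changed sign. In DPSC against Sham these were Psmb9 (-0.17 to 0.47), Psme1 (-0.12 to 0.088), Psme2 (-0.014 to 0.11), Tap1 (-0.18 to 0.069), Tap2 (-0.16 to 0.41) and Tapbp (-0.043 to 0.13). In MSC against MSCEPO they were B2m (-0.042 to 0.98), Psmb10 (-0.17 to 0.65), Psme2 (-0.14 to 0.56), Tap1 (-0.13 to 0.59) and Tap2 (-0.23 to 0.36), and in DPSC against MSCEPO Nlrc5 (-0.75 to 0.037) and Tap2 (-0.58 to 0.006). Against healthy they were Tap2 in Sham (-0.57 to 0.0011), MSC (-0.062 to 0.38), MSCEPO (-0.17 to 0.42) and DPSC (-0.42 to 0.026), and Tapbp (-0.11 to 0.54) and Psmb7 (-0.040 to 0.14) in MSC. Tapbp in cell-treated against Sham ran from -0.015 to 0.20.

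Over all groups the correlations of same-numbered libraries ran from -0.44 to 0.65, and 12 of 30 were over 0.1, with every correlation over 0.1 for MSC with MSCEPO alone. With the replicate number as a block, 7 members were called in MSC against healthy (6.02% of all genes higher), 5 in MSCEPO against healthy (2.7%), 5 by the F-test (6.99%) and 0 in the other comparisons. For MSC against MSCEPO, the block in a fit of those groups alone, added after seeing the data, also called 0 members and 0% of all genes.

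The depth of each library is unknown, and with 3 libraries per group the 95% interval of MSC minus MSCEPO for Psmb8 ran from -0.30 to 1.87.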

Other observations

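The 10 genes other than the members whose values followed the members' mean most closely over the 15 libraries were Fxyd5, Epsti1, Pycard, Casp1, Otulinl, Pik3cd, Cxcl16, Rcsd1, Wdfy4 and Glipr1. Their correlations, a description across libraries that share the group structure, ran from 0.982 for Glipr1 to 0.988 for Fxyd5. Pycard and Casp1 encode the adaptor and the protease of the inflammasome, and their mean rlog values were 5.34 and 5.59 in healthy, 6.17 and 6.21 in Sham, 7.30 and 7.79 in MSC, 6.70 and 6.90 in MSCEPO, and 6.16 and 6.52 in DPSC. Cxcl16, a chemokine that draws T cells, averaged 8.02 in healthy, 8.74 in Sham, 10.05 in MSC, 9.26 in MSCEPO and 8.83 in DPSC. Wdfy4, which serves cross-presentation on class I in dendritic cells, averaged 5.46 in healthy, 6.30 in Sham and 8.43 in MSC. With the group means removed, the correlations of these genes with the members' mean ran from 0.946 for Wdfy4 to 0.972 for Otulinl. The genes were picked by their correlation over the same 15 libraries, so these high values are partly set by that choice.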
